A study of Caenorhabditis elegans with 22 samples.

Results

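The genes described are 34 genes of Caenorhabditis elegans that encode parts of the contractile apparatus of muscle and of the structures that anchor it, out of 45461 genes in the count table. They were chosen by name from knowledge of muscle biology. The count table's gene names matched 33 of them, and myo-1, listed there under its other name let-75, was matched through its RefSeq symbol. All 34 had counts in every library and passed the filter on low counts, which kept 16822 genes. By role they comprised 11 genes of the thick filament, 17 of the thin filament and 6 of the attachments. By place of expression, as known for this species, 9 belong to body wall muscle, 5 to the pharynx and 20 to both or to other muscles and tissues.

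RNA was sequenced from whole adult worms kept on agar plates with 100 nM rotenone, an inhibitor of respiratory complex I, or with the solvent DMSO. Both treatments were sampled 1, 5, 10 and 20 days after L4, the last larval stage, which gave the groups DMSO day 1, 5, 10 and 20 and rotenone day 1, 5, 10 and 20. Each group held 3 libraries, except at day 20, where each held 2. The labels used here give no strain, no genotype and no statement of separate cultures, and the p-values therefore cover only how these libraries differed from each other, which may be technical.

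Muscle contracts when myosin heads of the thick filament pull on actin of the thin filament. In nematode body wall muscle, paramyosin and several myosin heavy chains build the thick filament, and calcium binding to troponin C lets tropomyosin move aside on the thin filament. Dense bodies and M-lines, which are built on integrin, fix the filaments to the cell membrane, the basement membrane and, through the epidermis, the cuticle. The pharynx, the feeding pump of the worm, has its own myosin heavy chains and its own troponin genes. Decline of body wall muscle structure and of pharyngeal pumping is a known feature of ageing in this species.

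Each library held between 25769159 and 69961601 counts. The 34 genes together took 1.13 to 1.22% of the counts at day 1 and 0.337 to 0.457% at later days. DMSO day 10 replicate 1 stood apart from the other libraries. Its value was below both other replicates for 22 of the 34 genes and above both for 10, with a median difference of -0.59 on the log2 scale. Across the 34 genes this difference had a Spearman correlation of -0.63 with exonic length, so longer genes tended to be lower in this library. One ribosomal RNA gene, rrn-3.1, held 17.56% of all counts in rotenone day 5 replicate 2.

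In young adults on DMSO a few thin filament genes stood highest when counts were set against exonic length. Expression was given as CPM, each library's counts scaled to its total over tested genes. The body wall troponin C pat-10 was highest, at 1000 ± 42 CPM per kilobase of exon at day 1 (SD, n = 3). The actin depolymerising factor unc-60 followed at 982.5 ± 15 CPM per kilobase, a gap smaller than the SD of pat-10. The body wall troponin I unc-27 reached 606.4 ± 21 CPM per kilobase. The thick filament light chains mlc-2 and mlc-3 stood at 479 ± 41 and 386.5 ± 21 CPM per kilobase, above most thin filament genes. Several thin filament genes lay far lower, such as tnc-2 at 22.07 ± 0.68. The heavy chain unc-54 stood at 315.5 ± 38 CPM per kilobase, far above myo-3 at 31.78 ± 3.4, myo-1 at 29.93 ± 4.9 and myo-2 at 23.82 ± 3.7. Of these 3, myo-3 and myo-1 differed by less than the SD of either, and myo-2 lay below both by more than its SD. The giant proteins were lowest on this scale, with ttn-1, the titin-like gene, at 2.262 ± 0.16 CPM per kilobase.

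Nearly all muscle genes fell between days 1 and 5 in worms on DMSO. At day 5, 31 of the 34 had passed as lower and 1 as higher (edgeR, adjusted p under 0.05 over all tested genes), while 31.3% of all 16822 tested genes were lower. The median log2 fold change was -1.88 over the 34 genes and -0.05 over all tested genes. At day 10, 31 were lower and none higher, against 29.6% of all genes lower. At day 20, 30 were lower and none higher, against 30.9% of all genes lower and 27.8% higher, and the medians were -1.67 and -0.01. In whole animals, fewer muscle cells, less RNA per muscle cell and more RNA from other tissues cannot be told apart.

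**Figure D1:**
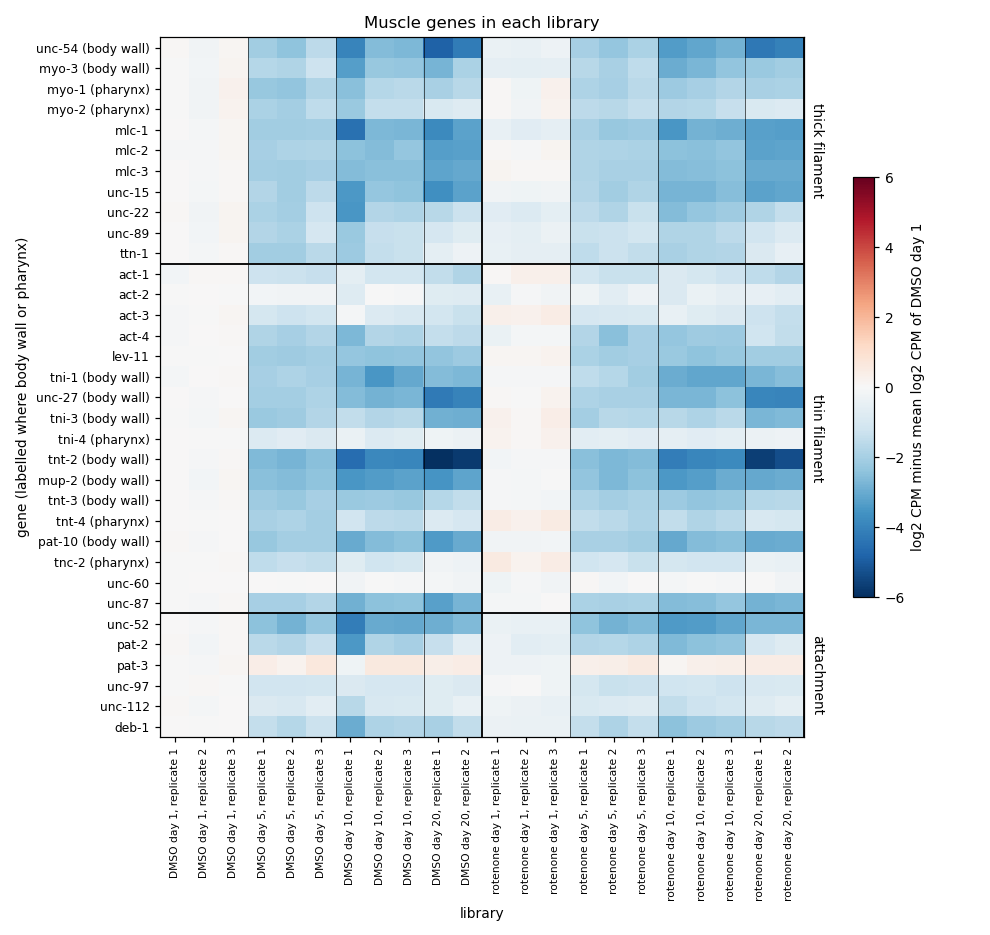
Each cell is the log2 CPM of 1 gene in 1 library minus that gene's mean log2 CPM at DMSO day 1; rows are the 34 genes by class and columns the 22 libraries by treatment and day. Blue, lower than DMSO day 1, fills nearly all rows after day 1 in both treatments, while unc-60 stays pale and pat-3 is red in most later libraries.

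Among thick filament genes the main body wall myosin fell most. CPM of unc-54, the main body wall myosin heavy chain, were 2061, 1685 and 2126 at DMSO day 1. They were 461.4, 361.2 and 646.8 at day 5, 124.4, 320.4 and 299.6 at day 10, and 66.38 and 107.1 at day 20. Each day lay below the day before it with no overlap. At day 20 the log2 fold change against day 1 was -4.50 ± 0.37 (SE, adjusted p = 2.79e-09 by edgeR), a 22.6-fold lower level.

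The other body wall heavy chain, myo-3, which forms the middle of the filament, fell less, by 2.28 ± 0.29 on the log2 scale at day 20. The myosin light chains, which sit on the neck of each myosin head, fell together. The log2 fold changes at day 20 were -3.51 ± 0.36 for mlc-1, -3.29 ± 0.11 for mlc-2 and -3.12 ± 0.10 for mlc-3. The genes mlc-1 and mlc-2 are near-identical, so reads may have been shared between them, and mlc-2 shares 77 bases of exon with an opposite-strand gene. The filament core protein paramyosin, unc-15, fell by 3.42 ± 0.26.

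The giant proteins of the thick filament followed another course. The gene ttn-1 lies on chromosome V from 6120909 to 6202632 (build WBcel235), with 56044 bases of exon. Its CPM were 129.4, 116.9 and 134 at DMSO day 1, 30.1, 29.92 and 41.61 at day 5, 27.62, 46.61 and 50.6 at day 10, and 83.53 and 102.5 at day 20. Days 5 and 10 overlapped, and both day 20 libraries lay above all day 5 and day 10 libraries and below all day 1 libraries. The gene fell by 1.91 ± 0.18 on the log2 scale at day 5, and its day 20 value of -0.45 ± 0.19 did not pass (adjusted p = 0.0545, edgeR). Twitchin, unc-22, fell by 1.46 ± 0.35 on the log2 scale to day 20, and the M-line protein unc-89 fell by 0.88 ± 0.24.

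The thin filament held both the steepest fall and the flattest gene. The troponin T gene tnt-2, whose product ties troponin to tropomyosin, lies on chromosome X from 8721546 to 8723550. It had CPM of 506.9, 474 and 527.9 at DMSO day 1 and 80.65, 73.78 and 89.65 at day 5. They were 21.16, 33.9 and 33.41 at day 10 and 7.905 and 9.27 at day 20. Each day lay below the day before with no overlap, and the day 20 level was 58.8-fold lower than at day 1, with a log2 fold change of -5.88 ± 0.21 (adjusted p = 9.00e-15, edgeR).

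The gene unc-60, which encodes proteins that sever and recycle actin filaments, had CPM of 693.1, 706.7 and 713.6 at DMSO day 1 and 656.1 and 610.7 at day 20. At days 5 and 10 its CPM were 709.4, 683.6 and 710.5, then 599.8, 686.9 and 678.8. Both day 20 libraries lay below the day 1 libraries. Rotenone libraries had CPM of 598.2, 676.4 and 615.2 at day 1, 749.9, 629.5 and 704.5 at day 5, 659.3, 687.8 and 677 at day 10, and 688.8 and 616.1 at day 20. Its values over all 22 libraries ran from 598.2 to 749.9, and its day 20 log2 fold change of -0.15 ± 0.10 did not pass (adjusted p = 0.188, edgeR). The gene is used outside muscle as well. It overlaps a neighbour over 7.81% of its exonic length.

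The remaining body wall troponin genes fell at day 20. Troponin I, the subunit that holds contraction off, is encoded by unc-27, tni-1 and tni-3 in body wall muscle, and the log2 fold changes were -4.11 ± 0.13, -2.65 ± 0.17 and -2.91 ± 0.16. Troponin T gave -3.34 ± 0.16 for mup-2 and -1.61 ± 0.10 for tnt-3, and troponin C gave -3.21 ± 0.18 for pat-10. Tropomyosin, lev-11, fell by 2.27 ± 0.10, and the calponin-like bundling protein unc-87 fell by 3.01 ± 0.16.

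The muscle actins fell less than most body wall troponin genes. Of 4 actin genes, act-1 gave a day 20 log2 fold change of -1.63 ± 0.16, act-2 of -0.74 ± 0.18, act-3 of -1.22 ± 0.19 and act-4 of -1.50 ± 0.22. At day 5, act-2 was at -0.19 ± 0.16, which did not pass, while act-4 had fallen by 1.87 ± 0.20. The genes act-1, act-2 and act-3 are near-identical neighbours on chromosome V, so the split of reads among them is uncertain, and opposite-strand noncoding genes overlap act-1 and act-3.

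Among the attachment genes the extracellular part fell and the beta integrin did not. The gene unc-52, perlecan of the muscle basement membrane, lies on chromosome II from 14647321 to 14684456. Its CPM were 284, 261.2 and 289.5 at DMSO day 1, 50.83, 39.37 and 56.17 at day 5, 15.52, 34.52 and 32.71 at day 10, and 36.86 and 43.94 at day 20. All later libraries lay far below day 1, and the 2 libraries of day 20 lay above all 3 of day 10. The log2 fold change at day 20 was -2.79 ± 0.25 (adjusted p = 8.16e-09, edgeR).

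CPM of pat-3, the beta integrin of dense bodies and M-lines and of many other cells, were 204.6, 195.8 and 226.2 at day 1 and 274.4, 242.2 and 321.9 at day 5. They were 171.6, 317.9 and 315.8 at day 10 and 266.4 and 283.8 at day 20. Days 1 and 5 did not overlap, and replicate 1 of day 10, the library that stood apart, was the lowest of all DMSO values. The gene rose by 0.42 ± 0.16 on the log2 scale at day 5 and was the 1 muscle gene called higher there. That call was lost in several alternatives, among them without DMSO day 5 replicate 3, at 0.31 with an adjusted p of 0.158 by edgeR, and without DMSO day 1 replicate 2, at 0.38 with 0.105. Its day 20 value of 0.40 ± 0.18 did not pass (adjusted p = 0.0647, edgeR).

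Its partner, the alpha integrin pat-2, was 0.98 ± 0.29 lower on the log2 scale at day 20. The integrin-associated proteins gave log2 fold changes of -1.71 ± 0.25 for deb-1, vinculin, -0.81 ± 0.10 for unc-97, a LIM domain protein of the PINCH family, and -0.58 ± 0.17 for unc-112, kindlin. Over the classes, the median log2 fold change at day 20 was -2.28 for the thick filament, -1.63 for the thin filament and -0.89 for the attachments. These medians describe the classes and were not tested against each other.

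**Figure D2:**
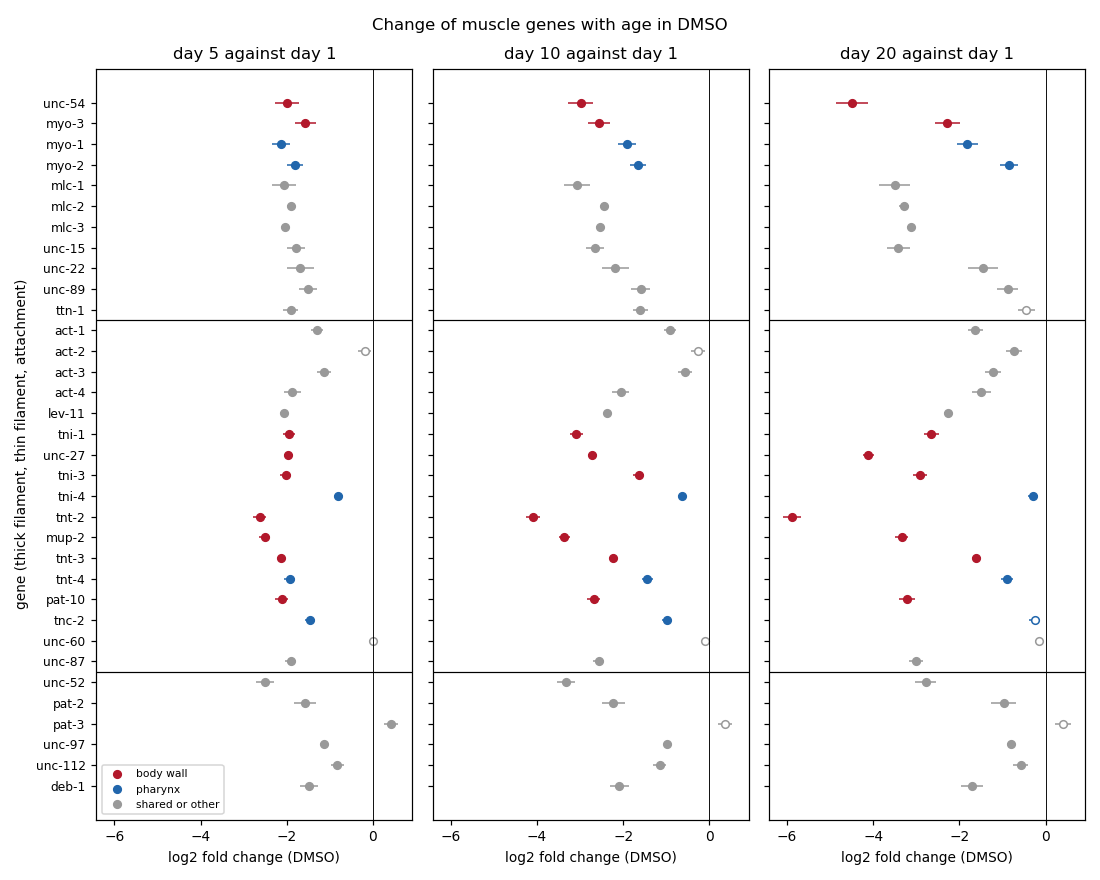
Points give the log2 fold change of each gene in DMSO at days 5, 10 and 20 against day 1 and bars its SE, coloured by body wall, pharynx or other expression; open points did not pass an adjusted p of 0.05. Body wall genes reach -5.88 at day 20, while the 5 pharyngeal genes lie between -1.82 and -0.25, a range that also holds the body wall gene tnt-3.

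Body wall and pharyngeal genes ended at different medians, which were not tested against each other. Their ranges overlapped at day 20 in DMSO, where the pharyngeal myo-1 had fallen more than the body wall tnt-3. At day 5 all 9 body wall and all 5 pharyngeal genes were lower than at day 1, with medians of -2.02 and -1.80 on the log2 scale. At day 20 all 9 body wall genes were lower, with a median of -3.21, and 4 of the 5 pharyngeal genes, with a median of -0.86. In DMSO each of the 5 pharyngeal genes had its lowest mean at day 5, though days 5 and 10 overlapped for myo-1, myo-2 and tni-4. On rotenone 3 of them had their lowest mean at day 5 and 2, myo-1 and myo-2, at day 10. In both treatments 4 of the 9 body wall genes had theirs at day 10 and 5 at day 20.

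The pharyngeal heavy chain myo-2 was higher again at day 20. Its CPM were 148.2, 129.1 and 175.4 at DMSO day 1, 40.13, 36.95 and 52.71 at day 5, 32.17, 55.19 and 56.18 at day 10, and 79.85 and 86.42 at day 20. The day 20 libraries lay above all of days 5 and 10 and below all of day 1. The log2 fold change at day 20 was -0.86 ± 0.21, and that of the other pharyngeal heavy chain, myo-1, was -1.82 ± 0.24. CPM of myo-1 ran from 37.46 to 55.63 at day 5, from 33.29 to 62.07 at day 10 and from 49.9 to 59.99 at day 20. These ranges overlapped, and myo-1 was not called between days 10 and 20, at 0.09 ± 0.23 (edgeR).

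The pharyngeal troponin genes were also higher again at day 20. CPM of tnc-2, the pharyngeal troponin C, were 17.84, 17.67 and 18.71 at DMSO day 1, 6.308, 6.969 and 6.476 at day 5, 10.84, 7.828 and 8.758 at day 10, and 15.57 and 14.71 at day 20. The 4 days did not overlap, and their order was day 1, 20, 10 and 5 from high to low. The day 20 log2 fold change of -0.25 ± 0.12 did not pass (adjusted p = 0.0846, edgeR). An opposite-strand gene, clec-143, overlaps 19.2% of the exonic length of tnc-2, and the library kit does not mark strand.

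CPM of tnt-4, the pharyngeal troponin T, were 31.74, 30.38 and 31.91 at DMSO day 1, 8.087, 8.776 and 7.684 at day 5, 13.97, 10.59 and 10.33 at day 10, and 17.89 and 15.61 at day 20. CPM of tni-4, the pharyngeal troponin I, were 52.99, 52.49 and 52.45 at day 1, 29.4, 32.5 and 28.45 at day 5, 40.54, 29.66 and 31.67 at day 10, and 44.26 and 41.59 at day 20. For both genes day 20 lay between day 1 and the days between them. The log2 fold changes at day 20 were -0.90 ± 0.14 for tnt-4 and -0.29 ± 0.11 for tni-4.

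The body wall troponin genes unc-27, pat-10 and mup-2 were not higher at day 20 than at day 10 past the threshold, whereas tni-1 and tnt-3 were. CPM of unc-27 fell from 579.1, 543.3 and 574.9 at DMSO day 1 to 138.5, 138.2 and 157.8 at day 5, 92.75, 80.42 and 84.71 at day 10 and 29.87 and 35.56 at day 20. CPM of pat-10 were 1019, 937.1 and 982 at day 1, 204.8, 234.4 and 238.8 at day 5, 119.1, 159.8 and 177.8 at day 10 and 91.91 and 119.8 at day 20. CPM of mup-2 were 338.7, 303 and 364.2 at day 1, 59.47, 55.12 and 62.44 at day 5, 29.47, 32.43 and 35.9 at day 10 and 28.8 and 37.42 at day 20. For unc-27 no days overlapped, for pat-10 days 10 and 20 overlapped slightly, and for mup-2 they covered nearly the same range.

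**Figure D3:**
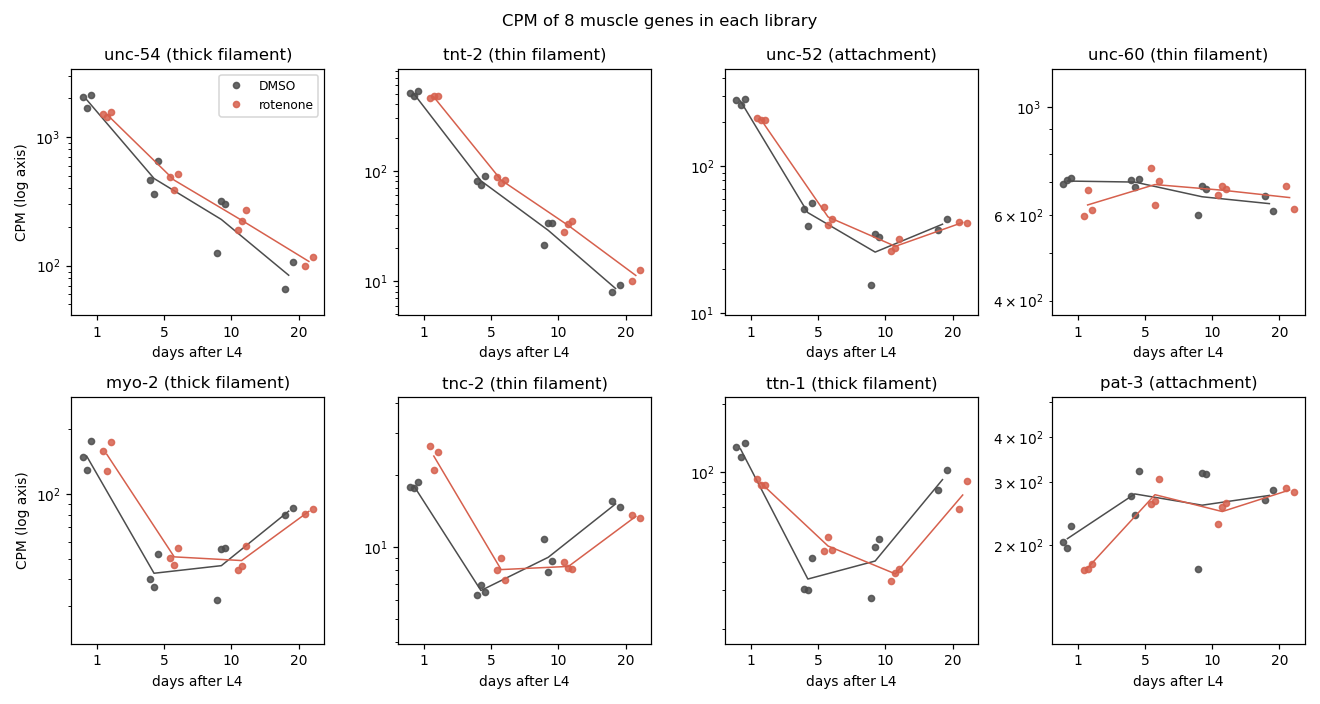
Points give the CPM of 8 genes in each library on log axes, by days after L4 and treatment, and lines join the geometric means of the groups. The upper row shows unc-54 and tnt-2 falling at each age, unc-52 falling to day 10 and unc-60 flat between 598.2 and 749.9 CPM; in the lower row myo-2, tnc-2 and ttn-1 are higher at day 20 than at day 10 and the later means of pat-3 lie above its day 1 mean in both treatments.

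For 4 pairs, a pharyngeal gene was set against a body wall paralogue within each library, as the log2 ratio of their counts. This ratio does not depend on library scaling. The pairs were chosen with earlier results of these data known. The p-values below therefore cover these pairs only, not the pharynx and body wall as a whole. From day 1 to day 20 the log2 ratio of myo-2 to unc-54 rose from -3.70 ± 0.10 (SD, n = 3) to -0.02 ± 0.41 (n = 2) in DMSO and from -3.30 ± 0.17 to -0.38 ± 0.10 in rotenone. The mean rise over both treatments was 3.30 for myo-2 to unc-54, 3.67 for tni-4 to unc-27, 2.00 for tnt-4 to mup-2 and 2.47 for tnc-2 to pat-10. Each gave p = 0.01 in a 2-sided exact permutation test within treatment, the smallest p the design allows, and an adjusted p of 0.02 over 8 such exact tests. In all 4 pairs every day 20 library lay above every day 1 library of its treatment. Without DMSO day 20 replicate 2 or either rotenone day 20 library, fewer arrangements were left and the adjusted p was 0.05 for all 4 (exact permutation).

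Other pairs of the same role gave a wide range. Over all 11 pairs of a pharyngeal with a body wall gene of the same role, the rise in DMSO from day 1 to day 20 ran from 0.53 for myo-1 to myo-3 and 0.71 for tnt-4 to tnt-3 to 4.97 for tnt-4 to tnt-2. On rotenone the ratio of myo-1 to myo-3 fell by 0.33 with no overlap, and that of tnt-4 to tnt-3 overlapped between these days. The ratios of myo-2 to myo-3 rose by 1.49 in DMSO and 0.72 on rotenone. The ratios had in part moved by day 5. In DMSO tni-4 to unc-27 rose by 1.16, tnc-2 to pat-10 by 0.66 and tnt-4 to mup-2 by 0.56 from day 1 to day 5 with no overlap, while myo-2 to unc-54 overlapped. The set of 11 was drawn up after the data were seen and is a description with no test.

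**Figure D4:**
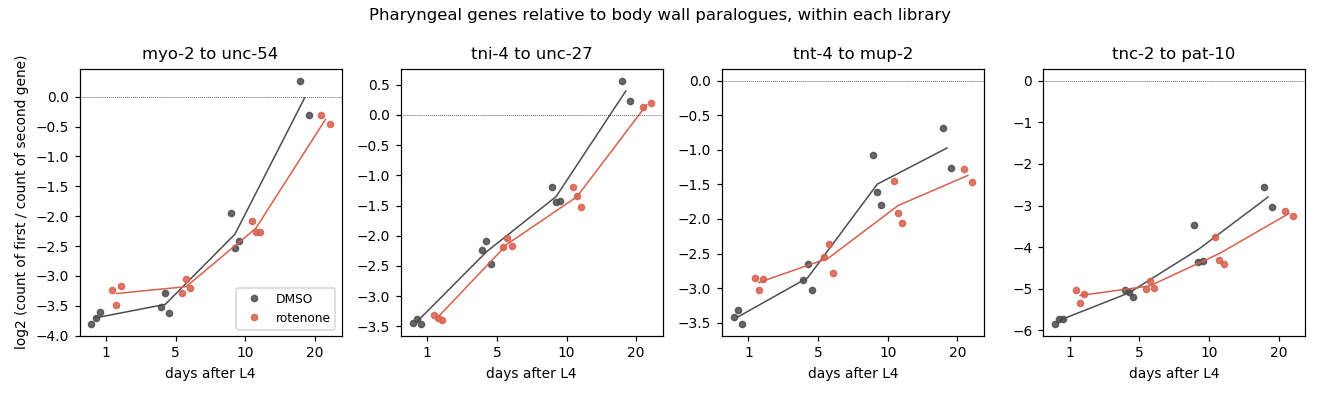
Points give the log2 ratio of counts of a pharyngeal gene to its body wall paralogue in each library, by days after L4 and treatment, and lines join group means. All 4 ratios rise with age in both treatments, that of myo-2 to unc-54 from near -3.70 to near 0 in DMSO.

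Between days 5 and 10 in DMSO the change was mixed. Of the 34 genes 15 were lower, against 12.1% of all tested genes, and 5 were higher, against 13.7%. The 5 were act-1, act-3, tni-3, tnt-4 and tnc-2, with log2 fold changes between 0.38 and 0.55. In each of the 5 the highest day 10 library was replicate 1, the one that stood apart, and each lost its call in some alternatives. Of all 20 calls, lower and higher, 7 held in all 31 alternatives. Of the 9 body wall genes 7 were lower, among them tnt-2 at -1.46 ± 0.14. A fit of only the 2 groups called 7 of the 34, all lower, in place of 20, with 13.3% of all genes called in it.

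Between days 10 and 20 in DMSO, 12 of the 34 were lower, against 22.3% of all tested genes, and 11 were higher, against 23.3%, so the shares are set against a wide change of the whole transcriptome. The higher genes included 4 of the 5 pharyngeal genes, myo-2 at 0.79 ± 0.20, tnc-2 at 0.74 ± 0.12, tnt-4 at 0.53 ± 0.13 and tni-4 at 0.34 ± 0.11. They also included ttn-1 at 1.16 ± 0.19, unc-89 at 0.71 ± 0.23, pat-2 at 1.25 ± 0.28, tnt-3 at 0.62 ± 0.10, unc-112 at 0.57 ± 0.17, act-4 at 0.56 ± 0.21 and tni-1 at 0.44 ± 0.16. The lower genes were led by tnt-2 at -1.79 ± 0.17, unc-54 at -1.52 ± 0.32, unc-27 at -1.40 ± 0.11 and tni-3 at -1.27 ± 0.15. All 11 higher genes lost their call in some alternatives, as did unc-54, while tnt-2, unc-27 and tni-3 kept theirs in all. A fit of only the 2 groups called 7 of the 34, 2 higher and 5 lower, in place of 23, with 16.9% of all genes called in it. The values of unc-89 and tnt-3 turned to -0.18 and -0.13 with the length trend removed and a replicate term within each day. Across the 34 genes this change had a Spearman correlation of 0.47 with exonic length, and 0.18 once the length trend of all genes was removed, so longer genes tended to be higher. CPM of unc-89 were 179.3, 158.6 and 199.5 at day 1, 53, 47.07 and 89.75 at day 5, 38.5, 68.97 and 70.29 at day 10, and 87.79 and 106.4 at day 20, where the lower library lay just under the highest of day 5.

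Among the thin filament genes the same interval split paralogues. CPM of act-4 were 740.7, 790.9 and 822.3 at DMSO day 1, 221.1, 194.1 and 229.9 at day 5, 120.3, 228.7 and 215.8 at day 10, and 293.6 and 263.1 at day 20. CPM of act-3 were 321.5, 339 and 365.7, then 162.5, 146.4 and 161, then 319, 196.3 and 175, and last 159.9 and 133.7. CPM of act-1 were 205.2, 239.8 and 240.7, then 96.15, 94.78 and 88.11, then 152, 106.9 and 105.5, and last 81.38 and 66.3. The act-4 libraries of day 20 lay above those of day 10, while those of act-1 and act-3 lay below, and the apart-standing day 10 replicate 1 was the lowest for act-4 and the highest for act-1 and act-3.

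Body wall troponins also parted. CPM of tnt-3 were 128.9, 122.9 and 133.6 at DMSO day 1, 28.82, 26.55 and 31.91 at day 5, 27.32, 27.98 and 26.69 at day 10, and 38.67 and 45.56 at day 20. CPM of tni-1 were 34.63, 38.01 and 38.49, then 9.31, 10.34 and 9.16, then 5.405, 3.328 and 4.462, and last 6.109 and 5.651. CPM of tni-3 were 47.57, 43.58 and 52, then 10.31, 10.86 and 14.13, then 16.84, 14.02 and 15.07, and last 6.428 and 6.237. For tnt-3 and tni-1 the day 20 libraries lay above those of day 10, and for tni-3 they lay below every earlier library.

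Worms on rotenone showed a like order of changes in their own libraries. Against rotenone day 1, 31 genes were lower at day 5, 32 at day 10 and 27 at day 20, where 35.4%, 33.7% and 33.4% of all tested genes were lower. One gene was higher at each of those ages, and it was pat-3, at 0.68 ± 0.16, 0.52 ± 0.16 and 0.72 ± 0.18 on the log2 scale. The day 10 call of pat-3 was lost in some alternatives. The largest day 20 falls on the log2 scale were -5.37 ± 0.20 for tnt-2, -4.03 ± 0.13 for unc-27 and -3.79 ± 0.36 for unc-54. All 9 body wall genes were lower, with a median of -2.96, and all 5 pharyngeal genes, with a median of -0.89.

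The pharyngeal and body wall pairs also parted on rotenone. CPM of unc-54 were 1497, 1428 and 1569 at rotenone day 1, 490.4, 387.4 and 518.5 at day 5, 188.2, 223.2 and 273.2 at day 10, and 99.84 and 116.6 at day 20. CPM of myo-2 were 158.8, 127.6 and 175.1, then 50.45, 46.74 and 56.11, then 44.46, 46.25 and 57.16, and last 80.62 and 85.33. All later libraries of both genes lay below day 1, and from day 10 to day 20 unc-54 fell with no overlap while myo-2 rose with none. CPM of unc-27 were 600.5, 560.6 and 654.4 at rotenone day 1, 155.1, 144.8 and 146.6 at day 5, 83.68, 84.12 and 101.1 at day 10, and 37.29 and 36.77 at day 20. CPM of tni-4 were 60.72, 54.77 and 62.27, then 33.88, 35.19 and 32.46, then 36.74, 33.2 and 35.03, and last 41 and 42.29. The body wall gene unc-27 kept falling, while all day 20 libraries of tni-4 lay above those of days 5 and 10.

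CPM of mup-2 were 313.4, 307.5 and 326.8 at rotenone day 1, 64.55, 52.42 and 60.81 at day 5, 30.34, 33.73 and 42.39 at day 10, and 39.32 and 41.93 at day 20. CPM of tnt-4 were 43.25, 37.61 and 44.78, then 11.08, 10.18 and 8.803, then 11.15, 8.917 and 10.23, and last 16.24 and 15.18. Days 10 and 20 overlapped for mup-2, and for tnt-4 day 20 lay above days 5 and 10. CPM of pat-10 were 854.6, 856.2 and 863.1 at rotenone day 1, 254.7, 252.2 and 230.3 at day 5, 115.9, 161 and 171.8 at day 10, and 119.2 and 125.6 at day 20. CPM of tnc-2 were 26.34, 21.04 and 24.88, then 7.987, 8.998 and 7.252, then 8.626, 8.161 and 8.107, and last 13.59 and 13.26. Days 10 and 20 overlapped for pat-10 as well, and tnc-2 at day 20 lay above days 5 and 10. For all 4 pharyngeal genes day 20 remained below day 1.

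The genes with the largest and smallest day 20 changes on DMSO had these values on rotenone. CPM of tnt-2 were 453.6, 473.8 and 473.4 at rotenone day 1, 87.87, 76.86 and 82.72 at day 5, 27.89, 32.94 and 35.15 at day 10, and 10.11 and 12.51 at day 20. CPM of ttn-1 were 93.39, 87.85 and 87.44, then 44.62, 51.55 and 44.91, then 32.94, 35.76 and 37.26, and last 68.54 and 91.13. The first fell at each age, and the second had 1 day 20 library inside the range of day 1. CPM of unc-52 were 212.8, 207.4 and 206.9 at rotenone day 1, 52.83, 39.5 and 44.01 at day 5, 26.25, 27.49 and 31.89 at day 10, and 41.43 and 41.32 at day 20. CPM of pat-3 were 170.1, 171.4 and 177, then 260.2, 265.1 and 305.7, then 228.4, 254.9 and 261.9, and last 288.2 and 281.3. Both day 20 libraries of unc-52 lay above those of day 10, and every later library of pat-3 lay above day 1.

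Between rotenone days 5 and 10, 17 genes were lower and none higher, against 11.6% and 11.2% of all genes. Between days 10 and 20, 13 were higher and 8 lower, against 28.2% and 21.2% of all genes. The median over all tested genes was 0.12 there, and the largest rises were pat-2 at 1.59 ± 0.28, ttn-1 at 1.18 ± 0.19, act-4 at 0.87 ± 0.21 and myo-2 at 0.75 ± 0.20. The ttn-1 value turned to -0.02 with the length trend removed and a replicate term within each day. The 8 lower genes were unc-54, mlc-2, mlc-3, act-1, act-3, unc-27, tni-3 and tnt-2. Of the 21 called genes 16 kept their direction and 10 their call in all 31 alternatives, some of which left 1 library at day 20.

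Rotenone itself changed no muscle gene past the threshold at any age in the fit of all groups. At days 1, 5, 10 and 20 none of the 34 passed in edgeR, against 0.648%, 0.88%, 1.36% and 0.0654% of all tested genes. At an unadjusted p under 0.05 there were 10, 4, 1 and 1 of the 34. The shares of all genes are for the adjusted p, so the unadjusted counts cannot be read as particular to muscle genes. DESeq2 called 2 genes at day 1, tnt-4 and tnc-2, both higher, and none at the other ages. The difference of the rotenone effect from that at day 1 also called none at days 5, 10 and 20, against 0.487%, 0.357% and 0.0416% of all genes. At an unadjusted p under 0.05 there were 3, 2 and 3 of the 34, again without a share of all genes at that threshold. DESeq2 called ttn-1 for day 5, at 0.98 ± 0.24 in edgeR, and none for days 10 and 20. Without DMSO day 10 replicate 1, unc-22, unc-89, ttn-1 and tnt-3 passed for day 5, where 4.7% of all genes did, and mlc-1, tnt-2 and tnc-2 for day 20, where 7.13% did. The comparisons with day 1 share its libraries.

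At day 1 the groups nonetheless lay apart for many muscle genes. The libraries of both treatments did not overlap for 24 of the 34, with rotenone lower in 19 and higher in 5, against 21.9% of all tested genes lower and 20.5% higher. CPM of ttn-1 were 93.39, 87.85 and 87.44 on rotenone against 129.4, 116.9 and 134 on DMSO, a log2 fold change of -0.50 ± 0.17 (adjusted p = 0.184, edgeR). CPM of tnc-2 were 26.34, 21.04 and 24.88 against 17.84, 17.67 and 18.71, a log2 fold change of 0.41 ± 0.11 (adjusted p = 0.0924, edgeR). In both genes every rotenone library lay on 1 side of every DMSO library. The 95% intervals of the 34 log2 fold changes together spanned -1.32 to 0.69.

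Further genes with an unadjusted p under 0.05 at day 1 were unc-22 at -0.69 ± 0.30, myo-3 at -0.57 ± 0.24, mlc-1 at -0.56 ± 0.27, unc-89 at -0.48 ± 0.21, unc-52 at -0.41 ± 0.20 and unc-112 at -0.35 ± 0.15. Higher values were those of tnt-4 at 0.42 ± 0.12 and act-3 at 0.36 ± 0.16. None of these passed. Without DMSO day 10 replicate 1, which is in neither group but enters the shared estimate of spread, 13 genes passed at day 1, 10 lower and 3 higher, or 38.2%, against 18.4% of all genes. The 3 were act-3, tnt-4 and tnc-2. A fit of only the day 1 groups called 20, 14 lower and 6 higher, or 58.8%, against 33.3% of all genes.

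The day 1 difference moved with gene length. Across the 34 genes its Spearman correlation with exonic length was -0.59, and across 16555 tested genes with a length it was -0.54. These are descriptions across genes, which share their libraries. With the length trend of all genes removed from each library, the log2 fold change was 0.25 for ttn-1 in place of -0.50, 0.19 for unc-89 in place of -0.48, 0.18 for unc-52 in place of -0.41 and -0.03 for unc-22 in place of -0.69. The direction turned for the first 3, and for unc-54, from -0.39 to 0.07. It stayed for tnt-4 at 0.38, tnc-2 at 0.25 and mlc-1 at -0.65. In that fit 2 genes passed, the pharyngeal heavy chains myo-1 and myo-2, both higher at 0.49, while 97 of all 16822 tested genes passed. Their values as fitted were 0.02 and 0.03 and changed sign when some single libraries were left out. Both were called at day 1 only in fits with the length trend removed. The part of gene length in the difference was not tested.

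**Figure D5:**
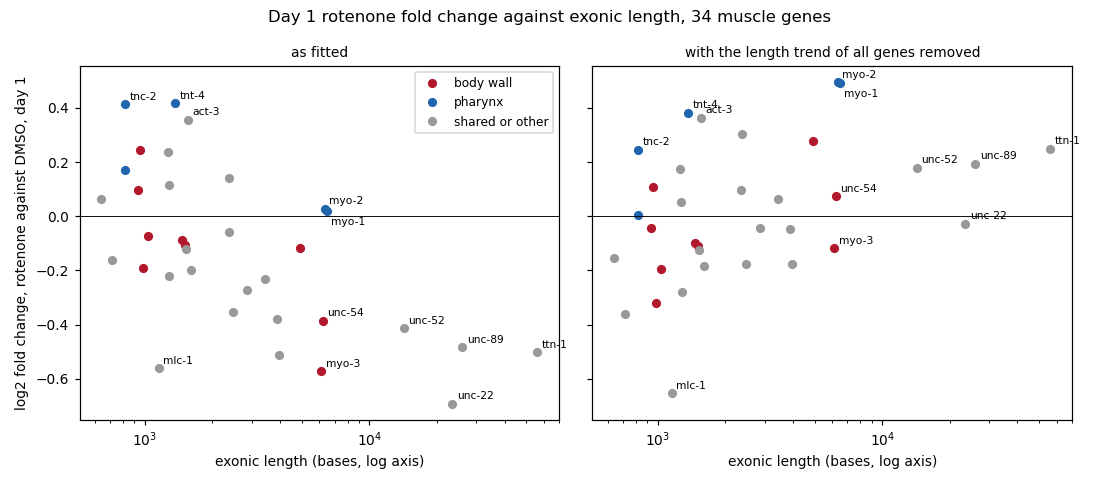
Points give the day 1 log2 fold change of rotenone against DMSO for the 34 genes by exonic length on a log axis, coloured by place of expression, as fitted on the left and with the length trend of all genes removed on the right. On the left longer genes lie lower, with a Spearman correlation of -0.59; on the right ttn-1, unc-89 and unc-52 lie above 0 and the pharyngeal myosins lead at 0.49.

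At later ages the groups overlapped for most genes. They lay apart for 6 of the 34 at day 5, against 18.1% of all genes, for 1 at day 10, against 11.6%, and for 10 at day 20, against 34.2%. The widest values were 0.47 ± 0.17 for ttn-1 at day 5, -0.33 ± 0.16 for act-2 at day 10 and 0.40 ± 0.18 for tnt-2 at day 20. Without DMSO day 10 replicate 1, ttn-1 passed at day 5 at 0.49, and ttn-1, act-2, pat-2 and pat-3 passed as lower at day 10, at -0.44, -0.50, -0.57 and -0.33. In that fit 1.84% of all genes passed at day 5 and 14.3% at day 10.

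Averaged over the 4 ages, rotenone did not shift the paralogue ratios past the threshold. The mean differences of rotenone minus DMSO were 0.11 for myo-2 to unc-54, -0.01 for tni-4 to unc-27, 0.02 for tnt-4 to mup-2 and 0.07 for tnc-2 to pat-10 on the log2 scale. Adjusted p-values were 0.571, 0.927, 0.927 and 0.835 by 2-sided exact permutation within day. The average joins ages of opposite sign. For tnc-2 to pat-10 rotenone minus DMSO was 0.60, 0.17, -0.10 and -0.39 at days 1, 5, 10 and 20, and for tnt-4 to mup-2 it was 0.50, 0.29, -0.31 and -0.40.

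Other muscle genes, from lists of genes known for these roles, moved in both directions. At DMSO day 20 against day 1, 15 of 29 further sarcomere and dense body genes were lower and 3 higher, with a median log2 fold change of -0.49 against -0.01 over all tested genes, of which 30.9% were lower and 27.8% higher. They were led by the calponin-like clik-1, from 494.9 ± 31 to 15.02 ± 0.094 CPM (SD), and dim-1, from 292.5 ± 11 to 26.47 ± 0.86. Of 30 excitation and calcium genes 11 were lower and 5 higher, with a median of -0.15, among them the calcium store protein csq-1 at -3.92 ± 0.20 and the potassium channel twk-18 at -3.52 ± 0.23 on the log2 scale. Of 9 transcription factors of muscle 7 were lower and 2 higher, with a median of -1.03, among them unc-120, an SRF-like factor, at -1.89 ± 0.16 and pha-4, the FoxA factor of the pharynx, at -1.03 ± 0.11.

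Of 26 genes of epidermal attachment and basement membrane 19 were lower and 2 higher, with a median of -1.26, among them ost-1, which encodes SPARC, at -2.25 ± 0.12, and the intermediate filament gene mua-6 at -3.29 ± 0.23. Of 17 genes of non-muscle actin and myosin 4 were lower and 5 higher, with a median of 0.22, shares near those of all genes. The lower ones included the intestinal actin act-5 at -2.75 ± 0.18 and profilin pfn-1 at -1.15 ± 0.10.

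Markers of other tissues moved over the same interval, DMSO day 1 to day 20, in which 30.9% of all tested genes were lower and 27.8% higher. The summed level of 12 epidermal markers went from 1977 to 2047 CPM in DMSO day 1 libraries to 93.04 to 123.4 CPM at day 20, with 11 of 12 lower. That of 11 intestinal markers went from 4510 to 4738 CPM to 673.8 to 765.7 CPM, with 10 lower and 1 higher. That of 14 germline markers went from 8336 to 8808 CPM to 5653 to 5890 CPM, with 9 lower. That of 14 neuronal markers went from 427.8 to 443.1 CPM to 645.3 to 685.2 CPM, with 10 higher and 1 lower. At DMSO day 5 the germline sum was 9420 to 11430 CPM, above day 1. The epidermal and intestinal sums lay below day 1 there, at 181.6 to 214.1 and 2172 to 2287 CPM. The neuronal sum overlapped day 1, at 424.1 to 457.4 CPM.

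The smaller lists also shifted from DMSO day 1 to day 20, against the same 30.9% of all tested genes lower and 27.8% higher. Of 12 markers of pharyngeal gland and cuticle 9 were lower, and their sum went from 74.87 to 79.97 CPM to 26.29 to 31.37 CPM. Of 8 sperm markers 5 were lower and 1 higher. No marker of these lists was at 0 in either group. The summed level of the 9 body wall genes went from 4322 to 5015 CPM to 303.8 to 419.1 CPM, and that of the 5 pharyngeal genes from 394.3 to 505.9 CPM to 207.5 to 218.3 CPM. The part of other tissues in the age changes was not tested.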

How the data were processed

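The authors deposited a table of read counts per gene, whole numbers without normalization, for 22 libraries, and a table of RPKM that was not used. TopHat 1.4.1, HTSeq and the build WBcel235 appear in the submitters' processing notes, with no role stated. Per the labels' protocols, libraries came from the TruSeq RNA kit, which does not mark strand, so overlapping opposite-strand genes were not separated.

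The main test was edgeR 4.0.16's quasi-likelihood F test on the deposited counts (R 4.3.3). Genes were kept by filterByExpr and libraries scaled by TMM. All 8 groups entered 1 fit, p-values were Benjamini-Hochberg adjusted over 16822 genes per comparison, and a gene passed under 0.05. The common biological coefficient of variation was 0.135. CPM are counts over the tested total times the TMM factor. SE were derived from the F statistic. Exonic lengths came from an Ensembl annotation and names from RefSeq, both of WBcel235. Log2 count ratios of 4 paralogue pairs were compared by exact permutation within treatment or day.

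The members, the lists of other genes and the comparisons were chosen with earlier results of these data known. All 34 members were named. Values in every library were given for the paralogue pairs, for the largest and smallest day 20 change of each class and for genes called against their class. For each list of other muscle genes, the 2 with the smallest p at DMSO day 20 were named. ttn-1 and tnc-2 at rotenone day 1 were chosen after their values were seen.

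Alternatives were a fit restricted to the compared groups, DESeq2 1.42.0, RLE scaling, dropping the filter or asking for a mean count of 50, a replicate term overall or within each day, removal of the length trend (lowess span 0.3), and each library left out. Deviations of same-numbered DMSO and rotenone libraries correlated at 0.43, 0.22 and 0.16 at day 10, and the numbers were taken to pair libraries there. Differently numbered libraries reached like values, 0.24 for DMSO replicate 2 with rotenone replicate 3 and 0.17 for DMSO replicate 3 with rotenone replicate 2. The rest lay between -0.39 and -0.25, so only the pair of replicates 1 stood out. The scripts were tested on simulated data, where fold sizes and false calls met their limits. A first limit on the share of changed genes recovered was not met for DMSO day 20 against day 1 and was replaced by those limits, so genes not called there may have changed.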

Additional observations from a re-analysis of the deposited data

Results flagged for a closer look

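The rotenone effect on the ratio of pharyngeal to body wall transcripts differed between day 20 and day 1. Rotenone minus DMSO on the log2 scale changed by -0.77 for myo-2 to unc-54, -0.30 for tni-4 to unc-27, -0.89 for tnt-4 to mup-2 and -0.99 for tnc-2 to pat-10. Each had an adjusted p of 0.0333 over 4 exact permutation tests, 2-sided, with labels rearranged within each day, where the smallest unadjusted p is 0.0167. This test was chosen after the data were seen, and the 4 pairs share their libraries. At day 1 rotenone lay above DMSO in every library for myo-2 to unc-54, tnt-4 to mup-2 and tnc-2 to pat-10, and overlapped for tni-4 to unc-27. At day 20 it lay below in every library for all but myo-2 to unc-54, which overlapped. With 2 libraries per group at day 20, the CPM of 34.2% of all tested genes lay apart as well. The nearest rotenone and DMSO libraries there were close, at -1.275 and -1.261 for tnt-4 to mup-2. They were at 0.2016 and 0.226 for tni-4 to unc-27, and at -3.132 and -3.025 for tnc-2 to pat-10. Without DMSO day 20 replicate 1 the 4 differences were -0.48, -0.13, -0.61 and -0.76, with adjusted p from 0.0667 to 0.0833 by exact permutation. Without either rotenone day 20 library, adjusted p ran from 0.0667 to 0.35. Without any 1 of the DMSO day 1 libraries it was 0.0667 for myo-2 to unc-54, and without some day 1 libraries tni-4 to unc-27 reached 0.05 or 0.0667.

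For 2 genes the rotenone libraries lay on opposite sides of the DMSO libraries at days 5 and 20, as for 3.12% of all tested genes. The log2 fold change of act-2 was -0.21 at day 5 and 0.18 at day 20. That of tnc-2 was 0.29 at day 5 and -0.17 at day 20. None of the 4 values passed, and the difference between these days was not tested. No group held the 4 libraries needed to test 1 library against the rest of its group gene by gene.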

How the results depend on the processing

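Calls of age were stable against day 1. Of the 30 genes lower at DMSO day 20, all kept their direction and 26 their call in all 31 alternatives, and pat-2, tni-4, unc-89 and unc-112 lost it in some. Between days 10 and 20 in DMSO, 21 of 23 called genes kept their direction and 5 their call. No gene called higher was among those 5. A fit of only the groups compared called 7 genes between DMSO days 5 and 10 (13.3% of all genes), 7 between days 10 and 20 (16.9%), 20 for rotenone at day 1 (33.3%), and 7 for its difference at day 5 (11.1%) and at day 20 (11.9%) from day 1. With the replicate block within each day, 28 genes were called between rotenone days 5 and 10 (36.4% of all genes), 10 for rotenone at day 1 (12.3%) and 1 each for its difference at days 5 and 10 (0.66% and 0.672%). The additive replicate block called 1 gene for the difference at day 5 (0.535% of all genes), and so did DESeq2 (1.2%). The block changed no call of rotenone against DMSO at day 10, where the numbers were taken to pair libraries. At the other days not every same-numbered pair was over 0.1.

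Without a filter on low counts, 10 genes were called for rotenone at day 1 (6.32% of all genes), 1 at day 5 (1.18%), and 3, 2 and 3 for its difference at days 5, 10 and 20 (2%, 2.6% and 2.77%). DESeq2 called 2 at day 1 (2.15%). With the length trend removed, 2 were called at day 1 (0.577%). With the block as well, 9, 4 and 1 were called at days 1, 5 and 10 (5.49%, 1.77% and 4%), and 3 each for the difference at days 10 and 20 (3.42% and 2.01%). Leaving out 1 library in turn gave up to 27 calls between rotenone days 10 and 20 in place of 21, and fewest where 1 library was left at rotenone day 20. It gave 0 to 13, 0 to 1 and 0 to 4 for rotenone at days 1, 5 and 10, and 0 to 4 and 0 to 3 for its difference at days 5 and 20. The highest of each came without DMSO day 10 replicate 1. In that fit the shares of all genes were 58.8%, 18.4%, 1.84%, 14.3%, 4.7% and 7.13% in this order. The cause was not tested.

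Some log2 fold changes turned when the length trend was removed. Without and then with the block, they were 0.19 and 0.19 for unc-89, 0.25 and 0.25 for ttn-1, 0.18 and 0.18 for unc-52 and 0.074 and 0.074 for unc-54 for rotenone at day 1. Between rotenone days 10 and 20 they were -0.046 and -0.24 for unc-89, -0.010 and -0.22 for lev-11 and -0.11 and -0.12 for unc-52, and with the block -0.023 for ttn-1 and -0.28 for tnt-3. With the block they were -0.18 for unc-89 and -0.13 for tnt-3 between DMSO days 10 and 20, and 0.089 for act-2 at DMSO day 5. For unc-60 at DMSO day 5 they were 0.13 and 0.20, with 0.11 for the block alone and -0.034 to 0.011 with 1 library left out. At rotenone day 1, leaving out 1 library gave -0.11 to 0.15 for myo-1 and -0.076 to 0.15 for myo-2.

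Leaving out 1 library, the rise of the ratio from day 1 to day 20 was 3.15 to 3.44 for myo-2 to unc-54, 3.59 to 3.76 for tni-4 to unc-27, 1.85 to 2.14 for tnt-4 to mup-2 and 2.35 to 2.59 for tnc-2 to pat-10. The adjusted p reached 0.05 without DMSO day 20 replicate 2 or either rotenone day 20 library, which leaves fewer arrangements. The mean rotenone difference was 0.039 to 0.18 for myo-2 to unc-54 (adjusted p = 0.0421 by exact permutation without DMSO day 20 replicate 1), -0.049 to 0.036 for tni-4 to unc-27 and -0.053 to 0.091 for tnt-4 to mup-2. Its day 20 minus day 1 difference was -1.05 to -0.48, -0.47 to -0.13, -1.18 to -0.61 and -1.23 to -0.76 for the 4 pairs in that order. With the length trend removed, that of tni-4 to unc-27 was -0.27 and no longer passed.

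Groups of 2 libraries at day 20 limit all comparisons there.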
